A study of Sus scrofa with 8 samples.

Results

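Transcripts of 7 immune genes were followed in pig skeletal muscle: HLA-DRA, HLA-DRB1 and CD74 of MHC class II presentation, B2M of MHC class I, C1QA of complement and macrophages, S100A9 of myeloid cells and the receptor HAVCR2. They are the genes of a fixed list whose symbol is the single symbol of a spot in the platform annotation. All 7 had spots, 14 of the 9984 on the array, a neighbouring pair for each gene, out of 2922 named genes in all. Muscle cDNA of pigs on a high energy diet was hybridised against muscle cDNA of pigs on a low energy diet, with 1 sample of each on every array. The 8 arrays form 4 couples of samples, each hybridised with the high energy sample in dye 5 and the low energy sample in dye 3, and then with the dyes swapped (Cy5 and Cy3, the labels of the design text). High energy samples 40, 41, 40 and ae met low energy samples 49, 61, 142 and be in couples 1 to 4, so couples 1 and 3 share a high energy sample. Breed, age, sex, muscle and time on the diet are not given in the labels. Neither is whether a sample is 1 animal or a pool. Errors thus describe how far these couples differ, technical scatter included. Arrays of a couple, which hold the same RNAs, shared little of that difference, as given below. Its technical part was not tested separately.

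MHC class II molecules present peptides from engulfed material to helper T cells. Their alpha chain (HLA-DRA) and beta chain (HLA-DRB1) assemble with the invariant chain CD74, which guards the peptide groove until the molecule reaches an endosome, and macrophages, dendritic cells and B cells are the main cells that make them. Beta-2 microglobulin (B2M) is the light chain of MHC class I, which nearly every nucleated cell carries. Resident macrophages are a main source of C1q, the recognition part of the classical complement pathway. S100A9 is a subunit of calprotectin, the abundant calcium-binding protein of neutrophils and monocytes. HAVCR2, also called TIM-3, is an inhibitory receptor of T cells that macrophages and dendritic cells carry too. Apart from B2M these are mainly transcripts of immune cells, but their cell source in this muscle was not measured. In bulk tissue fewer such cells and less RNA per cell cannot be told apart.

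The spots were named from human transcripts, and pig RNA can bind them unequally. Of the 7 symbols, 6 also occur in the pig gene tables, HLA-DRA among them, while HLA-DRB1 does not. Pig names of class II chains can begin with SLA, and there is 1 SLA-DRA entry. The pig RefSeq table lists 4 entries for the SLA-DRB chain, 2 of them pseudogenes, and 2 entries for B2M, so the ratios of HLA-DRB1 and B2M may hold several copies. A value is the log2 of the ratio of both channels, centred on the median of its array, and says nothing of a gene's level. No sequence is shown because no reference of probe or transcript sequence was used here.

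The direction of the deposited ratios is not stated. It was read as high over low energy, which is likely: channel 1 is labelled low energy and channel 2 high energy throughout, and per the design text the low energy samples were the reference. The fitted ratio of a gene or spot is followed by its turned value, obtained by changing the sign of the swapped arrays, those with dye 3 on the high energy sample, which is also the dye effect under the likely reading. The deviations of the arrays of a couple from the means of their dye orientation correlated across features at 0.013, 0.037, 0.025 and -0.045 for couples 1 to 4. These values are small and differ in sign, so they leave the direction unsettled. They also mean that the arrays of a couple shared little of what set the couples apart. Over the 3640 features measured on all arrays, any pair of arrays correlated at -0.043 to 0.13.

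Values were present for 77.6% to 94.4% of spots per array, and array medians lay between -0.0071 and 0.0115 before centring. Of 5025 features tested with limma, 2556 were genes. The deposited files hold no brightness, but most values are the logarithm of a ratio of whole numbers, and the larger of these numbers, called the recovered signal, is a lower bound on how bright a spot was. Its median over all values was 446. Where no such ratio was found, the value counted as bright. A low recovered signal need not mean a dim spot, because a factor common to both numbers cancels. Among muscle fibre markers its median was 3129.5 for the myosin MYH1, 1040.5 for the creatine kinase CKM, 655 for the troponin TNNT1 and 313 for myoglobin (MB), and the values of the actin ACTA1 mostly counted as bright.

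The comparison of both diets asked which transcripts of muscle differ with dietary energy. In it 0 of the 7 genes passed a Benjamini-Hochberg threshold of 0.05 in limma's test, against 0% of all 5025 features. At an unadjusted p under 0.05 there was 1 of the 7, against 3.78% of all features (190 of 5025). HLA-DRB1, S100A9 and HLA-DRA had ratios above 0, and HAVCR2, C1QA, B2M and CD74 had ratios below 0. The median of the 7 ratios was -0.018, and that of all features -0.012. The median size was 0.19, against 0.090 for all features, and the genes had been put on the list with earlier results of these data known. The 7 genes split by recovered signal and by how far apart their spots lay. The 3 class II genes were bright, with mean differences between spots of 0.20 to 0.33. The other 4 had lower recovered signals, with differences of 0.49 to 1.27.

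**Figure D1:**
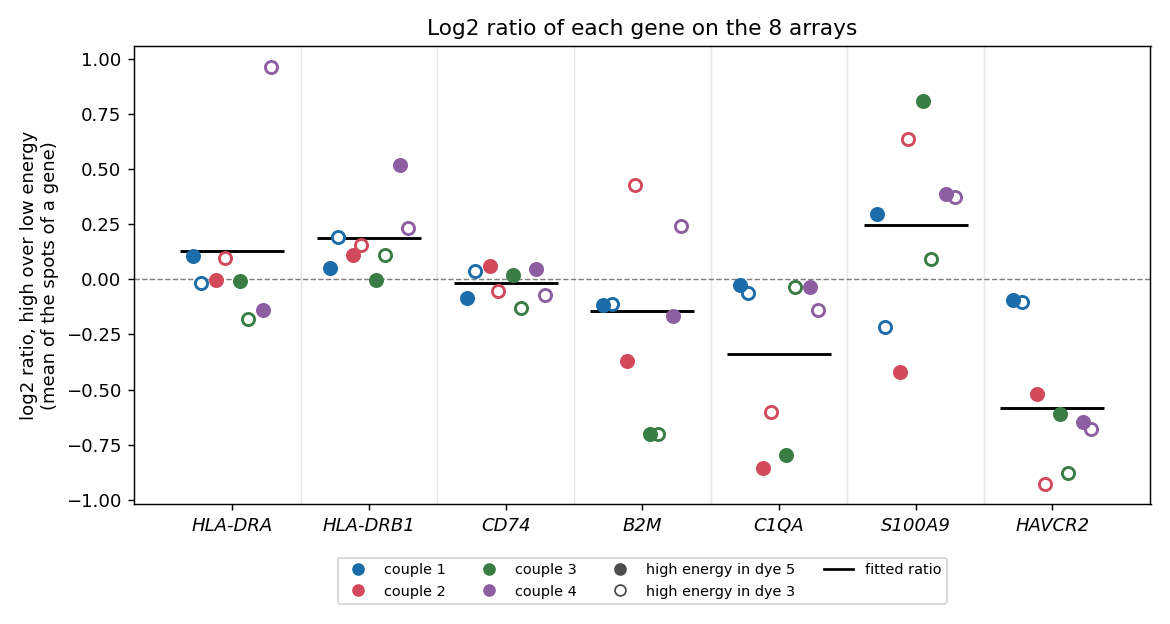
The y axis is the log2 ratio of high over low energy, as the mean of a gene's spots on an array, for 7 genes on the x axis; colours are couples, filled points have high energy in dye 5 and open points in dye 3, and black lines are fitted ratios. CD74 stays between -0.13 and 0.059, HAVCR2 and C1QA are below 0 on all 8 arrays, and 1 array sets HLA-DRA apart at 0.97.

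HLA-DRA, the class II alpha chain, had log2 ratios of 0.11, -0.0012, -0.0065 and -0.14 in couples 1 to 4 with high energy in dye 5, and of -0.017, 0.10, -0.18 and 0.97 in dye 3. All arrays but 1 thus lay within 0.18 of 0, and the array of couple 4 with high energy in dye 3 stood far above them. On that array the first spot had 1.79 and the second 0.14, with recovered signals of 115 and 10, while the other array of the couple had -0.16 and -0.12. Over the couples the fit gave 0.13 ± 0.12 (SE, n = 4 couples; turned -0.15; limma adjusted p = 0.996). Without couple 4 it was 0.0066.

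HLA-DRB1, the class II beta chain, had ratios of 0.053, 0.11, -0.0041 and 0.52 with high energy in dye 5, and of 0.19, 0.16, 0.11 and 0.23 in dye 3. It was above 0 on 7 of 8 arrays and in all 4 couples, which 7.47% of the 3640 features measured on all arrays also were. The fitted ratio was 0.19 ± 0.096 (turned 0.011), a 1.14-fold difference with a 95% interval of 0.964-fold to 1.35-fold (adjusted p = 0.996). Couple 4 had the highest mean, at 0.38, and without it the ratio was 0.11. Both spots had ratios above 0, at 0.15 ± 0.10 for the first (turned -0.053) and 0.23 ± 0.12 for the second (turned 0.075).

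CD74, the invariant chain, had ratios of -0.083, 0.059, 0.022 and 0.048 with high energy in dye 5, and of 0.039, -0.053, -0.13 and -0.071 in dye 3. It was the steadiest of the 7 genes: the 4 couple means lay between -0.054 and 0.0030 and had an SD of 0.024. Its fitted ratio was -0.018 ± 0.080 (turned 0.038; adjusted p = 0.996), and between -0.027 and -0.010 when 1 couple was left out. Its error is larger than that SD divided by the root of n because limma draws the spread of each gene towards that of all features. The 95% interval, 0.861-fold to 1.13-fold, bounds a difference in either direction.

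By recovered signal the class II transcripts came out highest of the set. The median recovered signal was 2142.5 for HLA-DRA and 2141.5 for HLA-DRB1, and for CD74 a ratio of whole numbers was found for only 7 of 16 values, so that most counted as bright. The mean absolute difference between the spots of a gene was 0.20 for CD74, 0.25 for HLA-DRB1 and 0.33 for HLA-DRA. Of the 2021 genes with a pair of spots measured together on at least 6 arrays, 18.9%, 26.2% and 39.5% had a smaller difference than these genes. HLA-DRA reached 0.33 through the single spot at 1.79.

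B2M, the class I light chain, had ratios of -0.12, -0.37, -0.70 and -0.16 with high energy in dye 5, and of -0.11, 0.43, -0.70 and 0.24 in dye 3. All 4 arrays of the first kind were below 0 and those of the second kind lay on both sides. The equal values of couple 3 came from different spots: with high energy in dye 5 the first spot had -0.15 and the second -1.26, and with high energy in dye 3 the first had -1.25 and the second -0.16. The fitted ratio was -0.14 ± 0.18 (turned -0.18; adjusted p = 0.996), and -0.015 without couple 3, -0.22 without couple 2 and -0.22 without couple 4. In this fit the turned value was the larger in size, but that order depended on how the couples were weighted. With couples taken as independent the ratio was -0.19. The arrays averaged -0.34 with high energy in dye 5 and -0.035 in dye 3. Its median recovered signal was 207.5.

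C1QA, the A chain of C1q, had ratios of -0.027, -0.86, -0.80 and -0.036 with high energy in dye 5, and of -0.062, -0.60, -0.033 and -0.14 in dye 3. It was below 0 on all 8 arrays, as were 1.46% of the 3640 features measured on all of them, and below 0 in all 4 couples, as were 9.12%, but 3 arrays carried nearly all of its size. Couple 2 averaged -0.73 and couple 3 -0.42, against -0.045 and -0.088 in couples 1 and 4. The fitted ratio was -0.34 ± 0.16 (turned -0.096; unadjusted p = 0.087, adjusted p = 0.996), or 0.791-fold with a 95% interval of 0.597-fold to 1.05-fold. Without couple 2 it was -0.17.

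The spots of C1QA shared a sign on 3 of 8 arrays, as did those of CD74, and the median over the 2021 genes was 4. In couple 2 the first spot had -1.53 and the second -0.19 with high energy in dye 5, and the first had 0.17 and the second -1.37 in dye 3. The low values of couple 2 on its arrays therefore came from different spots, as those of B2M did in couple 3. In couple 3 both spots were low with high energy in dye 5, at -0.96 and -0.64, but of opposite sign in dye 3, at 0.50 and -0.57. Taken alone, the first spot had -0.38 ± 0.12 (turned -0.43) and the second -0.29 ± 0.25 (turned 0.24), both below 0. Of its 16 spot values, 11 were below 0.

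S100A9, the calprotectin subunit, had ratios of 0.30, -0.42, 0.81 and 0.39 with high energy in dye 5, and of -0.22, 0.64, 0.092 and 0.38 in dye 3. It was above 0 on 6 of 8 arrays and in all 4 couples, the latter as were 7.47% of the 3640 features measured on all arrays. In couples 1 and 2 the arrays of a couple had opposite signs. Its fitted ratio was 0.25 ± 0.13 (turned -0.033; adjusted p = 0.996), or 1.19-fold with a 95% interval of 0.944-fold to 1.49-fold. The spots gave different pictures, since the first had 0.49 ± 0.33 (turned 0.0074) and the second 0.00092 ± 0.15 (turned -0.074). In couple 3 with high energy in dye 5 the first spot had 1.95 and the second -0.33.

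HAVCR2, or TIM-3, had ratios of -0.094, -0.52, -0.61 and -0.65 with high energy in dye 5, and of -0.10, -0.93, -0.88 and -0.68 in dye 3. It was below 0 on all 8 arrays, as were 1.46% of the 3640 features measured on all of them. Couple 1 lay nearest to 0 in both dye orientations. The fitted ratio was -0.59 ± 0.18 (turned 0.093), or 0.667-fold with a 95% interval of 0.488-fold to 0.910-fold, at an unadjusted p = 0.0195 and an adjusted p = 0.996 in limma's test. An unadjusted p under 0.05 with a ratio below 0 was found for 2.41% of all features (121 of 5025). By size HAVCR2 ranked 48 and by p 60 among the 5025, and with the swapped arrays turned it ranked 2483 and 1624.

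The mean of HAVCR2 hid spots that disagreed more than those of 99.4% of the 2021 genes, with a mean absolute difference of 1.27. Its spots shared a sign on 2 of the 6 arrays that measured both; B2M had the most of the set, at 6 of 8. In couple 2 with high energy in dye 5, the first spot had -1.70 and the second 0.66. In couple 4 with high energy in dye 3, the first had 0.59 and the second -1.95, which average to the -0.68 that looked like a repeat of the other array. That other array rested on 1 spot, the first at -0.65, and the array of couple 3 with high energy in dye 5 rested on the second at -0.61. Of these 6 arrays, only that of couple 2 with high energy in dye 3 had both spots past 0.5 in size with 1 sign, at -0.98 and -0.87. Fitted alone over 3 couples, the first spot had -0.57 ± 0.28 (turned -0.28) and the second -0.099 ± 0.19 (turned 0.21). For want of 1 array, couple 3 was left out for the first spot and couple 4 for the second. Those couples hold the lowest value of each spot, -1.71 and -1.95.

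**Figure D2:**
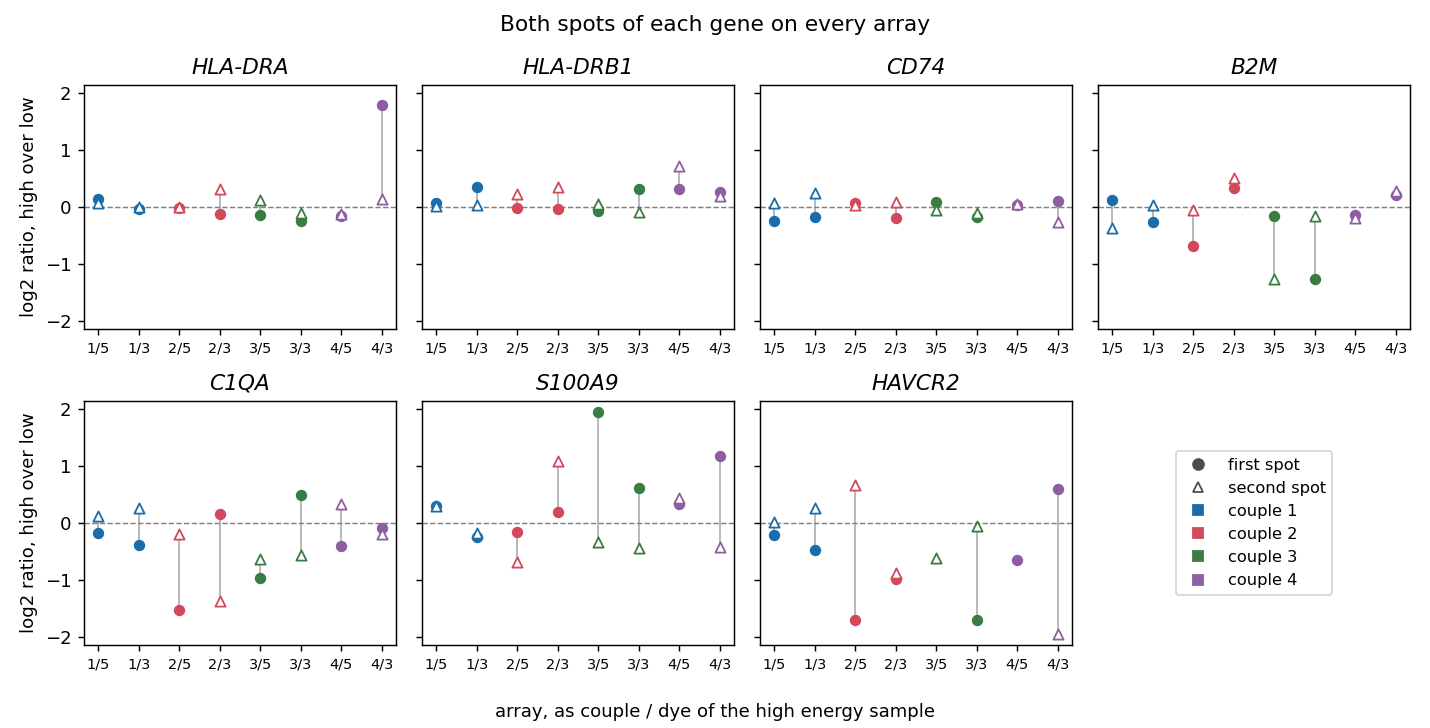
Each panel is a gene, with the array on the x axis, written as the couple and the dye of the high energy sample, and the log2 ratio of high over low energy on the y axis; circles are the first spot, triangles the second, and grey lines join the spots of an array. The spots of CD74 and HLA-DRB1 lie close together, while those of HAVCR2, C1QA and S100A9 lie further apart, as in couple 4 with high energy in dye 3, where HAVCR2 had 0.59 and -1.95.

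Values past 1 log2 unit in size came from lone spots. Of 108 spot values of the 7 genes with a measured partner on the same array, 11 were past 1 in size: 3 each for HAVCR2 and S100A9, 2 each for C1QA and B2M, and 1 for HLA-DRA. In 0 of these 11 was the partner spot also past 1 with the same sign. Over all genes with a pair of spots this held for 8.58% of 1561 such values, so a partner that repeated such a value was uncommon over the whole array too.

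Signal moved with this scatter. The median recovered signal was 204.5 for HAVCR2, 207.5 for B2M, 257 for C1QA and 429.5 for S100A9, and 7 of 14, 8 of 16, 5 of 16 and 4 of 16 of their values were under 200. The median spot difference was 0.55 for the 506 genes of lowest recovered signal, which include HAVCR2, B2M and C1QA, and 0.18 for the 505 of highest, which include the class II genes. HAVCR2 at 1.27 and C1QA at 0.76 lay above the first of these medians and B2M at 0.49 below it. S100A9, at 0.82, lay above the median of 0.37 of the 505 genes of its own signal range. The part of signal in the ratios of these genes was not tested. When values with a recovered signal under 200 were left out, B2M and HAVCR2 could no longer be tested, and C1QA had -0.26 ± 0.16. S100A9 had 0.39 ± 0.076 (limma adjusted p = 0.618) and HLA-DRA had 0.0070. These values rest on 3 couples, because S100A9 lost couple 1 and HLA-DRA lost couple 4, whose array at 0.97 was left out.

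**Figure D3:**
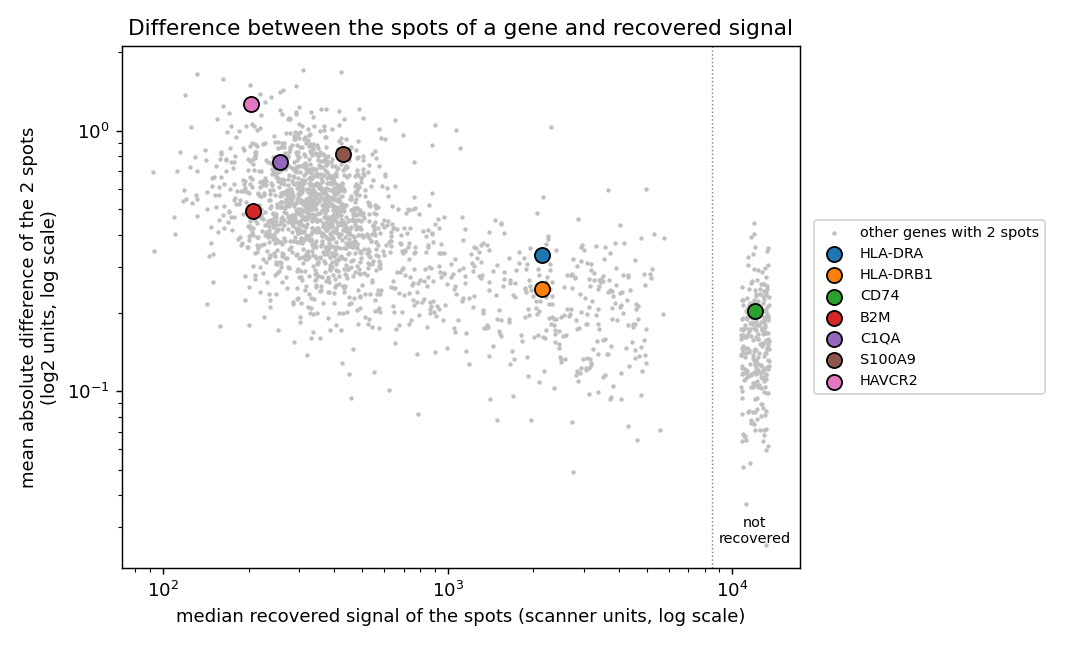
The x axis is the median recovered signal of a gene's spots in scanner units and the y axis the mean absolute difference between its spots in log2 units, both on log scales, for 2021 genes; genes whose median was not recovered are drawn right of the dotted line. HAVCR2 at 1.27, S100A9 at 0.82 and C1QA at 0.76 each lie above the median of genes of like signal. CD74, whose median was not recovered, lies at 0.20.

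**Figure D4:**
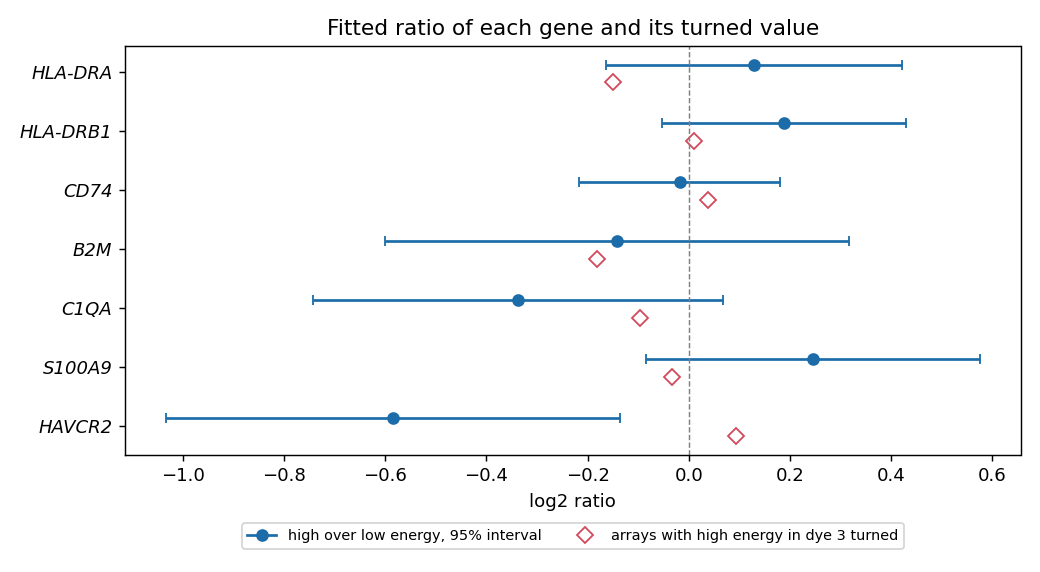
The x axis is the log2 ratio: blue points are fitted ratios of high over low energy with 95% intervals over 4 couples, and open red diamonds are the values with the arrays of high energy in dye 3 turned. The interval of HAVCR2 alone leaves out 0, from -1.03 to -0.14, before adjustment over the 5025 features.

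Turned values had the opposite sign for HLA-DRA, CD74, S100A9 and HAVCR2, and for HLA-DRB1 and C1QA they kept the sign but were smaller, at 0.011 and -0.096. B2M had similar values both ways, at -0.14 and turned -0.18. None of the 7 turned values passed (adjusted p = 0.998 for each in limma). HAVCR2 and C1QA were below 0 in both dye orientations. HAVCR2 averaged -0.47 ± 0.26 with high energy in dye 5 and -0.65 ± 0.38 in dye 3 (SD, n = 4 arrays each), and C1QA -0.43 ± 0.46 and -0.21 ± 0.27. HLA-DRB1 averaged 0.17 in both orientations, with an SD of 0.24 in dye 5 and 0.051 in dye 3.

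Other genes of the same pathways and cell types were read from lists chosen with earlier results in view. Over all lists 78 genes were tested, of which 0 passed. An unadjusted p under 0.05 was found for 5 of the 78 (6.41%, against 3.78% of all features), namely HAVCR2, GMFG, UBA7, MB and TNNT1; the last was named after its value was seen. For genes measured in 4 couples, the range when 1 couple was left out is added where it moved the ratio over 1.5 times or across 0. Over all 5025 features 53.6% were below 0.

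Among 10 tested genes of MHC class II presentation 4 were above 0 and 6 below, with a median of -0.012 (turned 0.0079), against -0.012 for all features (turned -0.0085). HLA-DPB1, a class II beta chain, had -0.084 ± 0.081 (turned 0.0049), and HLA-DQB1, another, had 0.047 ± 0.088 (turned -0.13; 0.016 to 0.11). Their partner alpha chains had -0.26 ± 0.16 for HLA-DPA1 (turned 0.25) and 0.17 ± 0.13 for HLA-DQA1 (turned -0.13), each in 3 couples. The class II chains thus had ratios on both sides of 0, also when turned.

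Among 7 tested genes of MHC class I presentation 5 were above 0, with a median of 0.048 (turned 0.088). PSMB8, a subunit of the immunoproteasome, which cuts peptides for class I, had 0.38 ± 0.17 in 3 couples (turned -0.066). CALR, a chaperone of class I assembly, had 0.47 ± 0.52 (turned 0.42; -0.17 to 0.76), and CANX, another, had 0.12 ± 0.11 (turned -0.060; 0.077 to 0.17). TAP2, a subunit of the peptide transporter, had -0.019 ± 0.23 (turned 0.24; -0.15 to 0.18). CALR and TAP2 thus changed sign with the couple that was left out.

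Among 11 tested markers of macrophages and monocytes 6 were above 0 and 5 below, with a median of 0.022 (turned -0.012). AIF1, a calcium-binding protein of macrophages, had 0.17 ± 0.094 (turned 0.030; 0.093 to 0.22). All 8 arrays put it above 0, as they did 0.797% of the 3640 features, while C1QA, another macrophage gene, was below 0 on all 8. CSF1R, the receptor on which macrophages depend, had 0.23 ± 0.20 (turned 0.060; 0.098 to 0.37). LYZ, lysozyme, was bright, with a median recovered signal of 4277.5, and had -0.049 ± 0.080 (turned -0.035). FCER1G, the shared signalling chain of Fc receptors, had 0.50 ± 0.46 in 3 couples (turned 0.063). These macrophage markers lay on both sides of 0.

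Of 8 tested neutrophil genes 3 were above 0, with a median of -0.0062 (turned -0.030). S100A8, the partner of S100A9 in calprotectin, had -0.15 ± 0.12 in 3 couples (turned -0.026), against 0.25 ± 0.13 for S100A9 (turned -0.033). The partners had opposite signs under the likely reading and the same sign when turned, and neither passed. S100A12 had -0.0015 ± 0.13 (turned 0.18; -0.068 to 0.069), LCN2, an iron-binding protein of neutrophil granules, 0.040 ± 0.13 (turned -0.081; -0.097 to 0.090), and the peroxidase MPO -0.015 ± 0.091 (turned -0.034; -0.053 to 0.031).

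Of 5 tested genes of T cells, NK cells and checkpoint receptors 4 were below 0, with a median of -0.092 (turned -0.017). The T cell receptor component CD3D had -0.13 ± 0.13 (turned -0.089; -0.19 to -0.043), CD5, a T cell surface protein, -0.092 ± 0.11 in 3 couples (turned 0.14), and GNLY -0.014 ± 0.079 (turned -0.017; -0.027 to -0.0083). LGALS9, a galectin that binds TIM-3, had 0.21 ± 0.26 (turned -0.36; -0.15 to 0.36). None of the 9 listed B cell genes could be tested.

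Of 10 genes expressed across leukocytes 4 were above 0, with a median of -0.033 (turned 0.021). GMFG, an actin regulator of blood cells, had 0.35 ± 0.090 (turned 0.28; unadjusted p = 0.0098). LCP1 had 0.0013 ± 0.18 (turned 0.23; -0.091 to 0.13), ARHGDIB -0.040 ± 0.23 (turned 0.18; -0.20 to 0.12) and RAC2 0.20 ± 0.42 in 3 couples (turned -0.51). Apart from GMFG, these genes had errors larger than their ratios.

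All 5 tested interferon response genes were below 0, with a median of -0.087, but turned 2 were above 0 and the median was -0.0062. UBA7, which activates the ubiquitin-like protein ISG15, had -0.33 ± 0.086 (turned -0.0062; unadjusted p = 0.010). ISG15 itself had -0.087 ± 0.14 (turned 0.26; -0.15 to 0.058), IFI35 -0.20 ± 0.24 (turned -0.50; -0.33 to 0.054) and IFITM1 -0.014 ± 0.22 (turned 0.0080; -0.17 to 0.17). The sign of these 3 depended on which couple was left out. Of 8 complement genes 6 were below 0, with a median of -0.029 (turned -0.0023). C1R, a protease that C1q binds, was bright and had -0.0039 ± 0.079 (turned -0.040; -0.0076 to 0.0022), and in 3 couples C3 had -0.14 ± 0.15 (turned 0.036), C4B 0.065 ± 0.13 (turned -0.19) and CFB 0.030 ± 0.12 (turned 0.13). All adjusted p-values of these lists were 0.996 or above.

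Blood and fibre markers were read beside the immune genes. Of 4 tested red cell genes 2 were above 0, with a median of -0.0018 (turned 0.099). HBB had 0.038 ± 0.10 (turned 0.094; -0.0042 to 0.14), HBA1 -0.025 ± 0.10 (turned 0.029; -0.072 to 0.013), HBA2 0.022 ± 0.12 (turned 0.10; -0.10 to 0.099) and AHSP -0.27 ± 0.16 (turned 0.17; -0.44 to -0.068). Of 10 fibre genes 7 were below 0, with a median of -0.10, and turned 3 were below 0, with a median of 0.021. ACTA1 had -0.038 ± 0.084 (turned 0.15; -0.050 to -0.0086), CKM 0.083 ± 0.080 (turned 0.016), MB -0.32 ± 0.10 (turned 0.22) and MYH1 -0.17 ± 0.11 (turned 0.060; -0.27 to -0.13). Their part in the immune gene ratios was not tested.

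**Figure D5:**
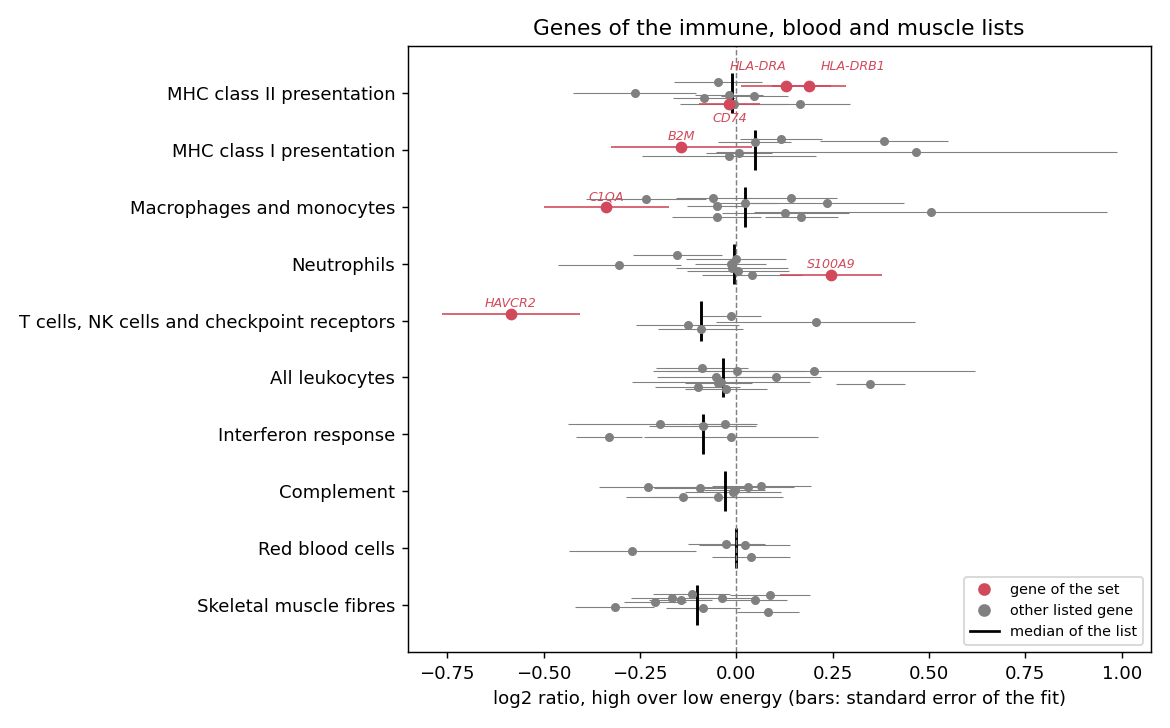
The x axis is the fitted log2 ratio of high over low energy with its standard error, for the tested genes of each list on the y axis; red points are genes of the set, grey points other listed genes, and black bars list medians. List medians lie between -0.10 and 0.048, HAVCR2 at -0.59 is the lowest point, and C1QA at -0.34 is the lowest of the macrophage genes.

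The genes most like each member were sought among the 1927 other named genes on all 8 arrays, by the root mean square difference of the log2 ratio over the arrays. For CD74 the nearest were TMEM52 and MSL3, both at a difference of 0.065, and for HLA-DRB1 HNRNPAB and AP2S1, both at 0.11. BCOR at 0.092 and SUGT1 at 0.14 were nearest to HLA-DRA, and MRFAP1 and IGHMBP2 at 0.24 to B2M. DCXR at 0.28 and CACUL1 at 0.29 were nearest to C1QA, YWHAG at 0.19 and MEF2D at 0.21 to S100A9, and TCEA3 at 0.31 and PGAP4 at 0.32 to HAVCR2. No gene of the set was among the 2 nearest of another. The median difference to all 1927 genes was 0.28 for CD74 and 0.68 for HAVCR2, so closeness also follows how far a gene strays from 0.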

How the data were processed

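Per the labels and the design text, muscle RNA of both diets was labelled with Cy3 and Cy5 and hybridised on 2-colour arrays read with a ScanArray LITE scanner. The deposited log2 ratios lack a stated base, which was read from the values: 5.09% to 17.8% per array were base 2 logarithms of fractions of whole numbers up to 60, against at most 2.25% in base e or 10. Not given in the sources used here are the background correction, filters and normalization. Arrays were centred on their medians, spots of a symbol averaged, and both arrays of a couple, which hold the same RNAs per the labels, averaged to 1 replicate. Features with at least 3 such couples were tested with limma 3.58.1 in R 4.3.3 (lmFit and eBayes against 0, two-sided, Benjamini-Hochberg threshold 0.05), with the high energy sample as the block, at a correlation set to 0.5. Where couples 1 and 3 were both measured, each counts less than another couple, so the fitted ratio is a weighted mean. With couples taken as independent HAVCR2 had -0.56 in place of -0.59, and B2M -0.19 in place of -0.14. The correlation estimated between arrays of a couple, which share both RNAs, was -0.0362, and none was estimated between couples 1 and 3. The fit was also run on simulated normal data with the same correlation, which cannot show whether that setting suits these arrays. The recovered signal needed a lesser number under 5000, which 0.98% of random values met. Named beside the members are the first 4 tested genes of each list and the 2 nearest genes of each member. Members and lists were chosen with earlier results of these data known. The number of arrays limits the precision.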

Additional observations from a re-analysis of the deposited data

Results flagged for a closer look

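The 4 couple means of HAVCR2 were tested for a value far from the rest, as were those of the other genes and the 4 arrays of each dye orientation, 21 groups in all. Couple 1 of HAVCR2 lay apart at -0.099, against -0.72, -0.74 and -0.66 in couples 2 to 4, and 1 of the 21 groups stood out in this way. Chance gives about 1 in 20. Couple 3 shares high energy sample 40 with couple 1, but its low energy sample is 142 in place of 49. The ratios of these couples need not be equal. In couple 1 the spots of HAVCR2 also had opposite signs on both arrays. They were at -0.21 and 0.025 with high energy in dye 5, and at -0.47 and 0.26 in dye 3.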

How the results depend on the processing

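No feature and no listed gene passed the adjusted threshold in any alternative, and neither did a turned value. Of the 117 alternative values of the 7 genes, 109 kept the sign of the fitted ratio and 8 did not. Some of the 109 could not have changed. The median of spots, the restriction to features measured in all 4 couples and the robust form of eBayes leave a member's ratio as it was. Turning the arrays with high energy in dye 3 gave HLA-DRA -0.15, CD74 0.038, S100A9 -0.033 and HAVCR2 0.093. High energy in dye 5 alone gave HLA-DRA -0.021 and CD74 0.020, high energy in dye 3 alone gave B2M 0.039, and the second spot of CD74 gave 0.0063. C1QA and HLA-DRB1 kept their sign in all 17, those that leave the ratio unchanged included. The adjusted p of HAVCR2 was between 0.181 and 0.999 over its 16 alternatives. At an unadjusted p under 0.05, the 190 features became 353 with all 8 arrays and the couple as a replicate block (correlation -0.0362), 310 with couples taken as independent, 108 with high energy in dye 5 alone, and 99 to 239 without 1 couple. The 133 turned features became 241 with the replicate block, 260 with independent couples, 208 with every spot on its own and 53 to 199 without 1 couple. The 5 listed genes became 11 with the replicate block, 9 by spot, 3 with the median of spots, 2 with high energy in dye 5 alone, 1 turned and 2 to 6 without 1 couple. The 82 features with 1 sign on all arrays became 50 with values of recovered signal under 200 left out, 25 turned and 181 to 225 without 1 couple. They became 627 on the arrays of high energy in dye 5 and 651 on those in dye 3, where counts over fewer arrays pass more easily. The cause of the other shifts was not tested. Intensities were not available here, so background correction and normalization could not be varied.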
